A study of Mus musculus with 2 samples.

Results

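The genes described here were the 7 proneural and neuronal differentiation factors of the neurogenin and NeuroD families, Neurog1, Neurog2, Neurog3, Neurod1, Neurod2, Neurod4 and Neurod6, and the 2 T-box genes of the TBR subfamily that follow them in the cortex, Eomes (Tbr2) and Tbr1. They were picked by gene symbol, as 9 of the 43346 Ensembl genes in the deposited tables, and all 9 were found in both libraries. The study made total RNA-seq libraries from the forebrain of embryonic day 11.5 mice of the C57BL/6NCrl strain. It had 1 group, with no treatment and no genotype contrast. Replicate 1 was a pool of 109 embryos and replicate 2 a separate pool of 88 embryos, both of mixed sex. Each library was thus an average over many embryos and over every cell type of the dissected forebrain, and with 2 libraries of 1 group no test between conditions was made. Differences between the libraries describe the spread between pools.

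Basic helix-loop-helix (bHLH) proneural factors commit neural progenitors to neuronal fate. They pair with broadly expressed E proteins and bind E-box sequences, ID proteins hold the E proteins in inactive pairs, and HES proteins downstream of Notch repress the proneural genes. In the dorsal telencephalon the factors are known to act in sequence, from Pax6 and the neurogenins in radial glia, through Eomes and Neurod1 in intermediate progenitors, to Neurod2, Neurod6 and Tbr1 in young glutamatergic neurons.

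The bHLH members share the stretch of protein that touches DNA, and its coding sequence is shown to let them be compared. Each run below covers 30 codons of the basic region and the start of the first helix, in reading direction, from the GENCODE M21 transcripts (GRCm38). Capitals mark 6 codons at the end of the basic region, which include the glutamate and arginines known to contact the E-box. The runs lie at chr13:56251573-56251662 on the minus strand for Neurog1, chr3:127634056-127634145 on the plus strand for Neurog2, chr10:62133703-62133792 on the plus strand for Neurog3, chr2:79454654-79454743 on the minus strand for Neurod1, chr11:98327890-98327979 on the minus strand for Neurod2, chr10:130271062-130271151 on the minus strand for Neurod4 and chr6:55679288-55679377 on the minus strand for Neurod6.
Neurog1: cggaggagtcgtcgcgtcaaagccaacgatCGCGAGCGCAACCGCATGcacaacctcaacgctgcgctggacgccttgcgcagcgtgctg
Neurog2: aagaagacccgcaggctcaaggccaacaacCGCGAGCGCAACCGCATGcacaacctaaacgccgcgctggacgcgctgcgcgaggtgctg
Neurog3: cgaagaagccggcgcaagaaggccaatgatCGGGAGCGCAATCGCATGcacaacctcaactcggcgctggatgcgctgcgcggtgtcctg
Neurod1: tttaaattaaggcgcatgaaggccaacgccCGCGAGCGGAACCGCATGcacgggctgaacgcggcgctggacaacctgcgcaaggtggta
Neurod2: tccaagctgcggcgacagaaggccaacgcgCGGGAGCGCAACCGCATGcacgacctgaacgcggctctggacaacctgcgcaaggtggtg
Neurod4: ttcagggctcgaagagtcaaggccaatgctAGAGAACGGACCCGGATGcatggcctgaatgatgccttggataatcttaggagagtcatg
Neurod6: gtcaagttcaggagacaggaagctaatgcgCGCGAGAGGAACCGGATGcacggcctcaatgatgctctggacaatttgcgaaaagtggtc
The 6 capital codons encoded the same residues in 6 of the 7 genes, and Neurod4 differed at 1 residue. Over the 30 codons, members of 1 family shared 21 to 27 residues (9 pairs, median 24), and a neurogenin and a NeuroD gene shared 19 to 22 (12 pairs, median 20). Neurog1 and Neurog3, and likewise Neurod1 and Neurod2, shared the most, with 27 of 30. Neurod1 and Neurod2 were identical at 74 of 90 bases. The longest exact run shared by any pair of the 9 genes' transcripts was 26 bases, between Neurog1 and Neurog2, followed by 25 bases between Neurod1 and Neurod2. The effective lengths in the files were 99 bases shorter than the transcripts, as fragments of 100 bases give, and no run of 100 bases was shared between any members. A fragment of that length therefore had no exact match in more than 1 of these genes.

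Neurog2, the main neurogenin of the developing pallium, was the most abundant of the 9. It lies at chr3:127633135-127635631 on the plus strand, with its coding sequence in 1 exon (ENSMUSG00000027967.7). Its level was 70.05 TPM (a gene's length-corrected share of all transcripts of its library, scaled to a fixed total) in replicate 1 and 74.61 TPM in replicate 2, or 72.3 ± 3.22 TPM (SD, n = 2), from 2278 and 3509 expected counts. This level was above that of 89.5% of protein-coding genes. In these bulk libraries, as for every gene here, fewer cells of a type and less RNA per cell cannot be told apart.

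Neurog1, which acts beside Neurog2 in the pallium and specifies sensory neurons in cranial ganglia, lies at chr13:56250478-56252163 on the minus strand as a single exon (ENSMUSG00000048904.4). It measured 26.66 TPM in replicate 1 and 22.06 TPM in replicate 2 (24.4 ± 3.25, SD, n = 2). Neurog2 was higher than Neurog1 in both pools, and the log2 ratio of Neurog1 to Neurog2 was -1.39 in replicate 1 and -1.76 in replicate 2. Neurog3, the neurogenin known for starting endocrine differentiation in the pancreas, lies at chr10:62133090-62134763 on the plus strand (ENSMUSG00000044312.3). It had 4 expected counts in replicate 1 and 9.51 in replicate 2, or 0.18 and 0.30 TPM. The authors' deposited interval for it was 0.0517 to 0.410 TPM in replicate 1 and 0.119 to 0.481 TPM in replicate 2, so both libraries stayed below 1 TPM. At this depth Neurog3 was a trace signal beside its 2 paralogs. Neurog2 made up 72.3% of the summed neurogenin TPM in replicate 1 and 76.9% in replicate 2.

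Eomes, the T-box factor that marks intermediate progenitors and also early Cajal-Retzius cells, lies at chr9:118478212-118486132 on the plus strand (ENSMUSG00000032446.10). It measured 20.42 TPM in replicate 1 and 18.06 TPM in replicate 2 (19.2 ± 1.67, SD, n = 2). Neurog2 was 3.43 times Eomes in replicate 1 and 4.13 times Eomes in replicate 2. The upstream factor was thus the more abundant transcript in both pools.

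Neurod1, a factor that promotes neuronal differentiation after the neurogenins, lies at chr2:79452521-79456751 on the minus strand (ENSMUSG00000034701.9). It measured 24.29 TPM in replicate 1 and 27.12 TPM in replicate 2 (25.7 ± 2.00, SD, n = 2). Neurod1 exceeded Eomes in both libraries, by a log2 ratio of 0.25 in replicate 1 and 0.59 in replicate 2. Its range overlapped that of Neurog1: Neurog1 was the higher of them in replicate 1 and Neurod1 in replicate 2.

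The other NeuroD genes were low. Neurod4, which acts with other proneural genes in neuronal commitment, lies at chr10:130268152-130280240 on the minus strand (ENSMUSG00000048015.3) and measured 5.76 and 4.88 TPM in replicates 1 and 2 (5.32 ± 0.622, SD, n = 2). Neurod6, a marker of young pallial glutamatergic neurons, lies at chr6:55677822-55681263 on the minus strand (ENSMUSG00000037984.8) and measured 6.17 and 5.99 TPM (6.08 ± 0.127, SD, n = 2). Neurod2, expressed in the same neurons, lies at chr11:98325415-98329648 on the minus strand (ENSMUSG00000038255.6) and measured 4.6 and 3.0 TPM (3.8 ± 1.13, SD, n = 2). All 3 were below Neurod1 in both libraries, with mean log2 ratios to Neurod1 of -2.28 for Neurod4, -2.08 for Neurod6 and -2.79 for Neurod2. Neurod1 made up 59.5% of the summed NeuroD TPM in replicate 1 and 66.2% in replicate 2.

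Tbr1, a T-box factor of early-born cortical neurons and later of layer 6, was the second most abundant member. It lies at chr2:61802930-61814114 on the plus strand (ENSMUSG00000035033.11) and measured 34.55 TPM in replicate 1 and 31.46 TPM in replicate 2 (33 ± 2.19, SD, n = 2). Tbr1 was 1.69 times Eomes in replicate 1 and 1.74 times Eomes in replicate 2. The last factor in the known sequence was thus more abundant than the intermediate progenitor factor before it, and by almost the same ratio in both pools. It was below Neurog2 by 1.02 on the log2 scale in replicate 1 and by 1.25 in replicate 2.

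**Figure D1:**
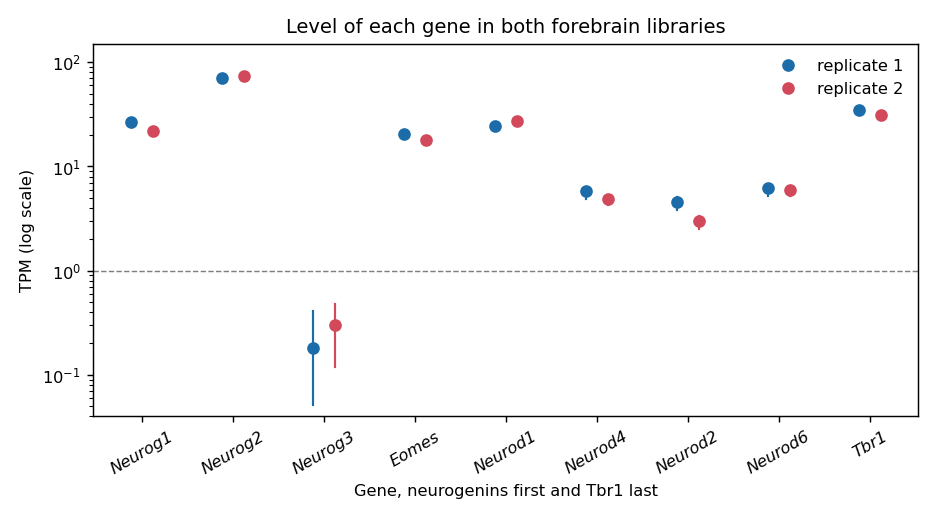
Level of each gene in TPM, on a log axis, with 1 point per library and vertical bars for the authors' deposited interval (mostly shorter than the point). Neurog2 is highest and Neurog3 lies below the dashed line at 1 TPM in both libraries, while Neurod2, Neurod4 and Neurod6 sit below Neurod1.

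By mean level the order was Neurog2, Tbr1, Neurod1, Neurog1, Eomes, Neurod6, Neurod4, Neurod2 and Neurog3. Among neighbours in that order, only Neurod1 and Neurog1 had ranges over the libraries that overlapped. Those ranges leave out the error within a library. The authors' deposited intervals for Neurod6 and Neurod4 overlapped in replicate 1 (5.157 to 6.839 and 4.925 to 6.213 TPM) and in replicate 2 (5.148 to 6.531 and 4.278 to 5.269 TPM). Those of Neurod4 and Neurod2 (3.859 to 5.042 TPM) overlapped in replicate 1 only. The place of Neurod4 in the order of these low NeuroD genes is thus uncertain. The deposited intervals of Neurod6 and Neurod2 did not overlap in either library. Abundance did not follow the place in the cascade: Neurog2, near its start, and Tbr1, at its end, were the highest. By group, the neurogenins summed to 96.89 TPM in replicate 1 and 96.97 TPM in replicate 2, the NeuroD genes to 40.82 and 40.99 TPM, and Eomes with Tbr1 to 54.97 and 49.52 TPM. The neurogenins held 50.3% and 51.7% of the summed TPM of the 9 genes. The sums of both bHLH families differed less between pools than Neurog1 or Neurod1 did alone.

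Detection was taken as 1 TPM or more in both libraries. It was met by 8 of the 9 genes, against 58.6% of the 21474 protein-coding genes in the tables, whose median was 3.95 TPM. Neurod2 lay closest to that median and Neurog3 was the member not detected. The share of 58.6% is also the one to set beside the detected counts of each gene list below.

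Between the pools, a difference was called where TMM-scaled expected counts differed 1.5-fold or more. This call was met by 2 of the 9 members, Neurod2 and Neurog3, against 13.6% of the 18297 genes with 10 or more counts summed over both libraries. Among the 8 members with 100 or more counts it was met by 1, Neurod2, against 2.79% of 13510 genes. Neurod2 had 214 expected counts in replicate 1 and 202 in the deeper replicate 2, a log2 ratio of replicate 2 to replicate 1 of -0.62 with an exact 95% counting interval of -0.90 to -0.33. Its deposited TPM intervals, 3.859 to 5.042 and 2.53 to 3.336, did not overlap. With libraries scaled by their spike-in counts, the log2 ratio of Neurod2 was -0.57, short of 1.5-fold, and 1 member passed. Neurog3 had a log2 ratio of 0.69 with a counting interval of -1.01 to 2.92, which includes no difference. These intervals cover counting error only.

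The remaining members differed less. The log2 ratio of replicate 2 to replicate 1 was -0.27 for Neurog1, -0.24 for Neurod4, -0.18 for Eomes, -0.05 for Neurod6, -0.04 for Tbr1, 0.09 for Neurog2 and 0.16 for Neurod1. In all, 6 members were lower and 3 higher in replicate 2, with a median of -0.05, against a median of 0.00 over all genes, of which 9152 were lower and 9145 higher. The counting interval left out 0 for 6 members, whose differences were below 1.5-fold for all but Neurod2. For Neurod4 (-0.47 to -0.01) and Neurog2 (0.01 to 0.17) it came close to 0. How many of all genes had such an interval was not counted, so this count is not a result about the members. Genes of like depth set the scale for the differences between pools. Among the 4731 genes with 100 to 1000 counts, to which Neurod2, Neurod4 and Neurod6 belong, the SD of the log2 ratio was 0.44 and 7.76% passed 1.5-fold. Among the 7610 genes with 1000 to 10000 counts, to which the 5 more abundant members belong, the SD was 0.14 and 0.118% passed it.

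**Figure D2:**
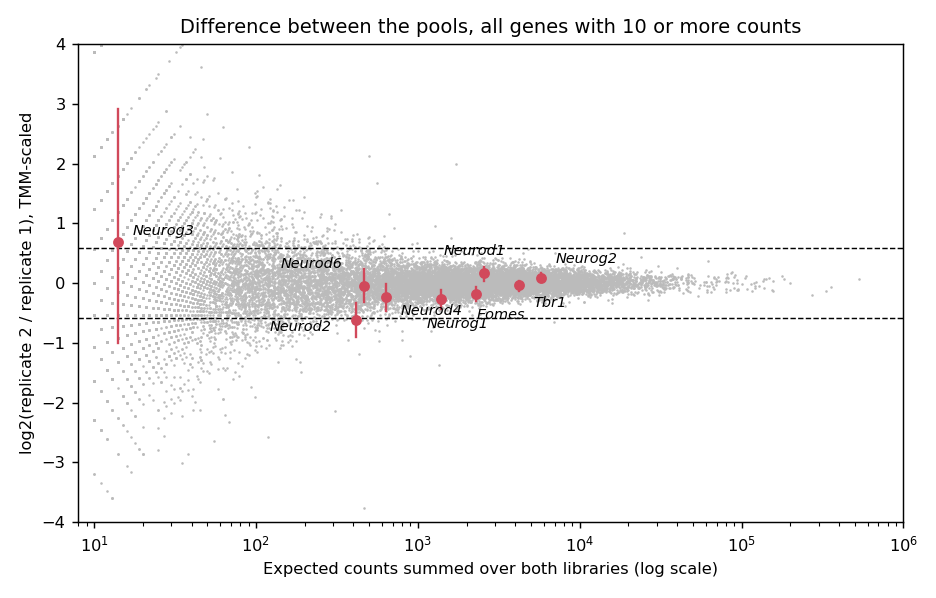
Log2 ratio of replicate 2 to replicate 1 (TMM-scaled expected counts) against the summed counts of each gene, on a log axis. Grey points are all genes with 10 or more counts, red points the members with exact 95% counting intervals, and dashed lines mark 1.5-fold. Neurod2 and Neurog3 lie past a line, and the interval of Neurog3 spans both lines.

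The dimer partners and inhibitors of the bHLH factors were nearly all more abundant than the median protein-coding gene, with Hey2 the exception at 1.84 TPM. All 3 E proteins, the partners, were detected: Tcf3 at 197 ± 11.1 TPM, Tcf4 at 117 ± 8.54 TPM and Tcf12 at 95.5 ± 6.20 TPM (SD, n = 2 throughout). Their summed TPM was 3.04 times that of the 7 bHLH members in replicate 1 and 2.90 times in replicate 2. All 9 inhibitors of the ID, HES and HEY families were detected, led by Id3 at 289 ± 16.1 TPM, Id4 at 255 ± 0.615 TPM and Hes5 at 249 ± 2.66 TPM. Id1 to Id4 together were 5.35 and 5.25 times the 7 bHLH members. The summed E protein and the summed ID transcripts thus each outnumbered those of the 7 bHLH members in both libraries. No gene of either list differed 1.5-fold between pools.

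Of 13 other neurogenic bHLH genes, 7 were detected, against 58.6% of protein-coding genes. The 13, which the ratios above leave out, summed to 147.5 TPM in replicate 1 and 135.6 TPM in replicate 2. Among them, Nhlh2, a bHLH gene of newly born neurons, was at 26.5 ± 1.52 TPM and Olig3 at 20.2 ± 1.75 TPM. The 6 upstream factors of the pallium were all detected and none differed 1.5-fold between pools. Lhx2 stood at 147 ± 10.9 TPM, Pax6 at 78.9 ± 3.23 TPM and Emx2 at 61.5 ± 1.53 TPM. Neurog2 was 0.914 and 0.919 times Pax6, a factor known to activate it. Each of these genes had a log2 ratio of replicate 2 to replicate 1 of 0.09. That is within the SD of 0.14 over genes with 1000 to 10000 counts, and a link between the genes was not tested.

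Among 9 genes of basal progenitors and committed precursors, 8 were detected, led by Hes6 at 205 ± 1.09 TPM, Gadd45g at 129 ± 6.78 TPM and Mfng at 87.3 ± 2.40 TPM. Of these 9, 2 passed 1.5-fold, against 13.6% of all genes with 10 or more counts, and both were lower in replicate 2. They are named because they passed. Insm1, a zinc finger factor of basal progenitor formation, was at 6.84 and 3.93 TPM in replicates 1 and 2 (log2 ratio -0.80). It was in the class of 100 to 1000 counts, in which 7.76% of all genes passed. Unc5d, a netrin receptor gene, was at 0.44 and 0.20 TPM (-1.12), in the class of 10 to 100 counts, in which 44.1% passed. All 11 known targets and genes of young pallial neurons were detected with none past 1.5-fold, led by Dcx, a microtubule protein of migrating neurons, at 63.2 ± 0.707 TPM, Cbfa2t2 at 55.3 ± 1.39 TPM and Sox5 at 46.8 ± 2.14 TPM. Of the vesicular glutamate transporters, named after their values were seen, Slc17a6 was at 16.3 ± 0.205 TPM and Slc17a7 at 2.95 ± 0.332 TPM, so that Tbr1 was 2.14 and 1.92 times Slc17a6.

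The wider T-box family was mostly below detection beside Eomes and Tbr1. Of 15 other T-box genes, 4 were detected in both libraries, led by Mga at 29.9 ± 4.87 TPM, Tbx18 at 4.49 ± 0.368 TPM and Tbx15 at 2.77 ± 0.332 TPM. Tbx19 had 0 counts in both, which allows up to 3 counts per library. Tbx21, the remaining gene of the TBR subfamily, measured 0.155 ± 0.0212 TPM. Among the T-box genes with 10 or more counts, 5 of 11 passed 1.5-fold, against the 13.6% of all such genes given above. Named because they passed, Tbx22, Tbx3, T and Tbx4 were higher and Tbx6 lower in replicate 2. T, Tbx4 and Tbx6 had 10 to 100 counts, a class in which 44.1% of all genes passed 1.5-fold.

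**Figure D3:**
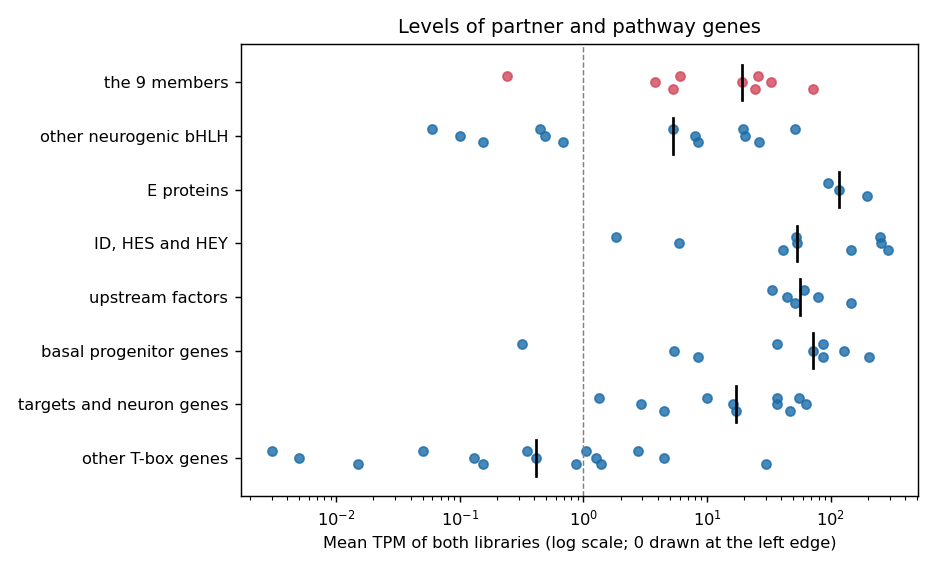
Mean TPM of both libraries for the 9 members (red) and the genes of each pathway list (blue), on a log axis, 1 point per gene, with a black bar at each list's median. E proteins lie wholly above the members' highest gene, and most other T-box genes lie left of the dashed line at 1 TPM.

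Several members are also used outside the pallium, so markers of other places were read beside them. All 6 forebrain markers were detected, led by Lhx2, Nr2f1 at 87.5 ± 4.85 TPM and Emx2. All 7 markers of Cajal-Retzius cells, which can express Eomes and Tbr1, were detected, led by Calb2 at 22.9 ± 0.339 TPM, Lhx5 at 19.5 ± 1.48 TPM and Ebf2 at 15.4 ± 0.516 TPM. Thalamic markers were detected for 5 of 6 genes, led by Tcf7l2 at 114.5 ± 2.81 TPM, Lhx9 at 27.1 ± 0.530 TPM and Irx3 at 10.9 ± 1.84 TPM. Hypothalamic markers were detected for 5 of 6 genes, led by Nkx2-1 at 32.6 ± 5.09 TPM, Fezf1 at 29.3 ± 1.47 TPM and Otp at 3.05 ± 0.573 TPM. The list medians were lower than these leading genes, at 9.99 TPM for Cajal-Retzius cells, 8.365 TPM for thalamus and 2.70 TPM for hypothalamus. Dissected tissue therefore held transcripts of genes used as markers of several forebrain regions. Which region or cell type contributed the counts of each marker or member was not tested.

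Cranial sensory ganglia use Neurog1 and Neurod1, and 4 of 8 of their markers were detected. Among them, Isl1 at 27.2 ± 0.417 TPM and Eya1 at 13.5 ± 1.25 TPM are also active in other embryonic tissues. The summed level of the 8 was 54.9 TPM in replicate 1 and 51.02 TPM in replicate 2. The part of ganglion cells in the Neurog1 and Neurod1 levels was not tested. Retinal markers were detected for 1 of 6 genes (Rax, 2.36 ± 0.495 TPM, which the hypothalamus also expresses), followed by Atoh7 at 0.445 and Six6 at 0.09 mean TPM. No olfactory sensory neuron marker of 4 was detected in both libraries, with Gng13 at 1.06 ± 0.467, Ano2 at 0.29 and Cnga2 at 0.155 mean TPM. None of 6 pancreatic endocrine genes was detected, and Pdx1, Ins1 and Ins2 had 0 counts in both libraries. Iapp, Pax4 and Gcg were at 0.15, 0.055 and 0.035 mean TPM. None of 7 HOX genes of hindbrain and spinal cord was detected. Hoxb4 and Hoxc9 had 0 counts, and Hoxb2, Hoxb1 and Hoxa5 led with 0.06, 0.035 and 0.035 mean TPM.

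At the transcript level, each of the 7 bHLH genes had 1 transcript in the tables, and both T-box genes had several. Eomes was carried by its long form of 3560 nt (ENSMUST00000035020.10, 2121 coding bases), with 87.0% of the gene's TPM in replicate 1 and 85.3% in replicate 2. A shorter form of 1647 nt (ENSMUST00000150633.1, 1185 coding bases) held 10.9% and 11.0%. These shares differed little between pools. Tbr1 was carried by its form of 3977 nt (ENSMUST00000048934.10, 2043 coding bases), with 81.2% in replicate 1 and 88.3% in replicate 2.

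The level of that main Tbr1 form was close to equal in both pools, at 28.04 and 27.77 TPM. The rest of the gene's TPM differed. Picked out after its values were seen, a non-coding Tbr1 transcript of 796 nt (ENSMUST00000131538.1) was at 3.38 TPM in replicate 1 and 1.13 TPM in replicate 2, from 35.99 and 17.4 expected counts. Its share of the gene's counts had exact 95% intervals of 1.44% to 2.82% and 0.401% to 1.10%. These intervals cover counting error only and leave out the error of dividing reads among transcripts. Since the transcript was picked for its values, they are no test of the difference. The whole gene's log2 ratio was -0.04 from counts but -0.14 from TPM, since its mean transcript length in the files was 3432.6 nt in replicate 1 and 3653.02 nt in replicate 2. Counts and TPM thus gave differences of unlike size for Tbr1.

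**Figure D4:**
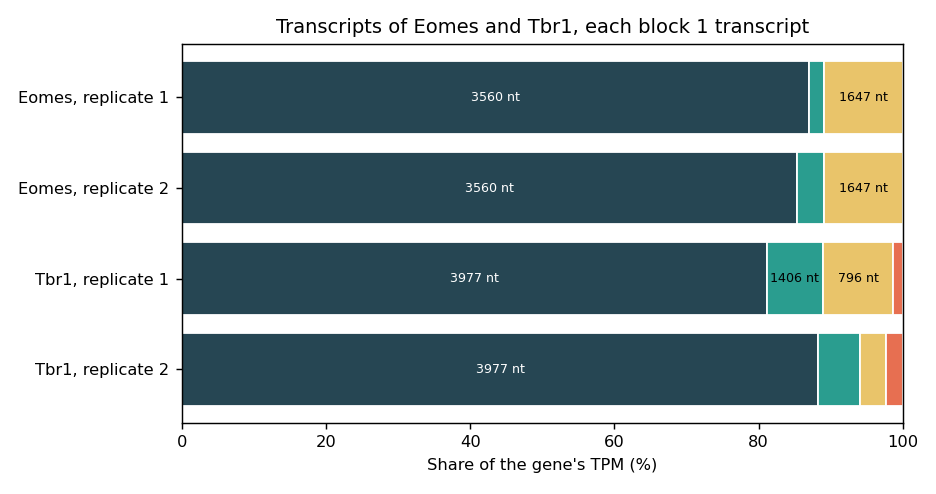
Share of each gene's TPM (%) held by each annotated transcript of Eomes and Tbr1 in each library, with lengths written in the larger blocks. The Eomes bars are alike in both libraries, while the yellow block of Tbr1, its 796 nt transcript, spans 9.78% in replicate 1 and 3.59% in replicate 2.

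Overlapping genes touched 3 members. The handling of strand in the authors' counting is not given in the sources used here, so reads in shared exons cannot be assigned from these tables. Neurog3 shares 273 of its 1674 exonic bases (16.3%) with Fam241b on the opposite strand, which measured 7.31 and 6.18 TPM and had 118 and 135.49 expected counts, far more than the 4 and 9.51 of Neurog3. The few counts of Neurog3 are therefore uncertain. Neurod1 shares 201 of 2729 exonic bases (7.37%) with Cerkl on the same strand (1.74 and 0.94 TPM) and 154 (5.64%) with Gm26755 on the opposite strand (0 and 0.11 TPM). Both neighbours were low beside Neurod1. Of the runs of 100 bases in Eomes, 20 of 4155 (0.481%) fell in Gm33460, and no exonic run of the other 6 members was shared with any gene.

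**Figure D5:**
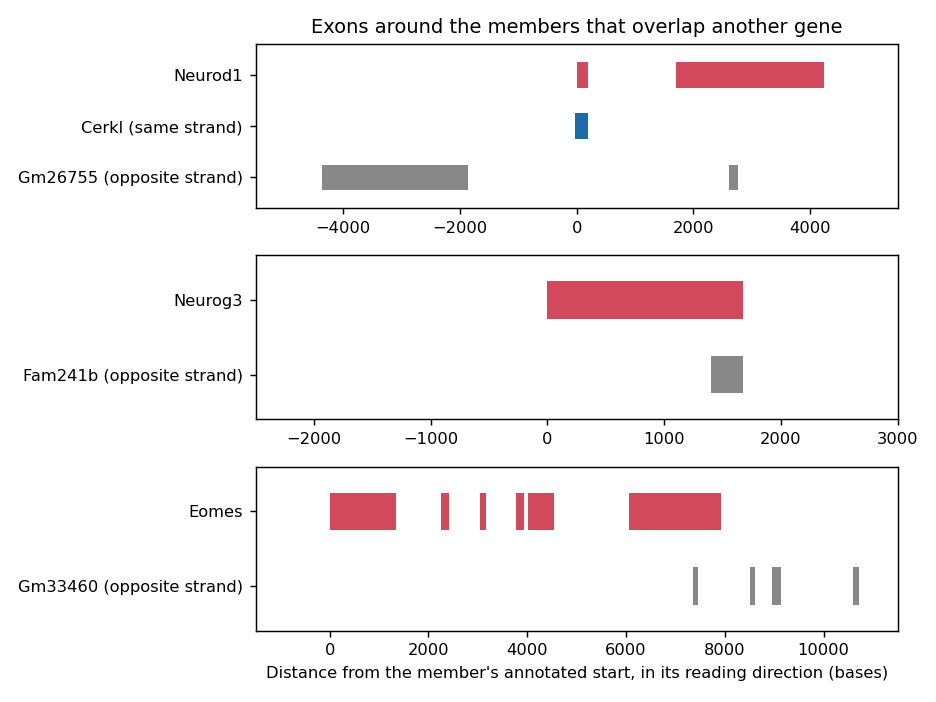
Exons of Neurod1, Neurog3 and Eomes (red) and of the genes that overlap them on the same strand (blue) or the opposite strand (grey), by distance in bases from the member's annotated start. Fam241b covers the last part of the Neurog3 block, which joins the exons of all its annotated transcripts, and Cerkl and Gm26755 cover short stretches of Neurod1.

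The start regions were read from RefSeq promoter windows (GRCm38.p6), 250 bases before to 50 after each start, which matched all 9 genes. The motif TATATAA, a core promoter sequence chosen after the windows had been read, was found in 3 of the 9 genes, against 3.24% of all 32851 windows on either strand. It began 29 bases before the start in Neurog2, 30 in Eomes and 31 in Neurod1. In Neurod1 the GENCODE transcript starts 115 bases farther upstream, so there the motif lies inside the annotated first exon. Measured from the GENCODE gene starts, the motif began 28 bases before in Neurog2 and 53 bases before in Eomes. The Eomes GENCODE start lies 23 bases downstream of its RefSeq start. The alike positions thus hold for the RefSeq starts only. The Neurog2 and Eomes windows are printed from 60 bases before the RefSeq start to 20 after, with the motif in capitals. They lie on the plus strand at chr3:127633076-127633155 and chr9:118478129-118478208.
Neurog2: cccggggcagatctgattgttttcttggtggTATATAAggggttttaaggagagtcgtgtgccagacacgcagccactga
Eomes: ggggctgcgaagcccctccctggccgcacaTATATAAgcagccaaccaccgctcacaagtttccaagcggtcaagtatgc
The E-box forms stood near their share in all windows. The general form CANNTG was in 7 of 9 genes against 72.3%, CAGCTG in 2 against 16.3%, and CAGATG in 1 (Neurod2) against 17.2%, the last 2 being cases of the general form. A gene was counted if any of its windows held the motif, while the shares are of windows. Neurod4, with more than 1 window, held CANNTG and CAGCTG in only 1 of them. The CCAAT box was in 6 against 37.4%, the homeodomain core TAATTA in 2 (Neurog1 and Tbr1) against 5.29%, and the T-box motif AGGTGTGA in 0 against 1.28%, with both strands searched for every motif. The RefSeq start of Tbr1 lies 1523 bases downstream of the GENCODE gene start, so its window covers 1 of several annotated starts. A match describes the letters only, and whether a factor binds there was not measured.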

How the data were processed

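Total RNA was measured in 2 libraries of 1 group, replicates 1 and 2. Per the deposited text notes, the authors aligned reads to mm10 and its transcriptome with GENCODE M4. Which aligner, quantifier, versions and strand setting were used is not given in the sources used here. Tables that the authors deposited hold expected counts, which divide reads among transcripts and need not be whole, and TPM, which are scaled over all entries, spike-ins included. Per the file headers they also hold posterior mean TPM and the bounds of an interval whose level is not stated.

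Names, models and sequences came from GENCODE M21, and 42462 of 43346 identifiers matched. Entries with numeric identifiers (26248) and 97 spike-ins were left out of library sizes. Ensembl genes summed to 23165260 and 33597028 expected counts in replicates 1 and 2. Counts were rounded and scaled with TMM (edgeR 4.0.16, R 4.3.3), log2 ratios used a prior count of 0.5, and counting intervals were exact binomial at 95%. The fold call was run on simulated counts that held counting error only and planted changes larger than 1.5-fold. That run checked the calculation and does not show how the call behaves under the spread between pools. With 1 group, no p-value was computed.

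The text names all members, the 3 highest genes of each list, every gene of lists of 4 or fewer, markers at 0 counts, and transcripts with 10% or more of a gene. Genes outside this rule are said to be so where named. Some genes that the rule names are not reported here. The members and lists were chosen with earlier results of these data known. Alternatives were DESeq2 1.42.0 size factors, total and spike-in scaling, count minimums, a 2-fold call, posterior mean TPM, TPM over Ensembl genes only, a pseudocount of 1, and each library alone.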

Additional observations from a re-analysis of the deposited data

How the results depend on the processing

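The count of members past 1.5-fold between pools was 2 with TMM, 1 with a minimum of 100 counts, 1 with spike-in scaling (Neurod2 at -0.57) and 0 with a 2-fold call. The same 6 members were lower in replicate 2 under all 4 scalings, though with spike-in scaling Neurod6 and Tbr1 were at -0.00. With a pseudocount of 1, the mean log2 ratio was 0.75 for Tbr1 to Eomes, -1.91 for Neurod6 to Neurod1 and -2.0 for Neurod4 to Neurog1. TPM rescaled over Ensembl genes only, which removes the spike-ins by construction, gave 27.95 for Neurog1, 82.97 for Neurog2, 29.49 for Neurod1, 6.104 for Neurod4, 6.975 for Neurod6, 22.07 for Eomes and 37.87 for Tbr1, and posterior mean TPM gave 5.915 for Neurod6. As shares of expected counts, the main transcript held 92.27% of Eomes and 95.37% of Tbr1, and the 1647 nt Eomes form 5.238% (11.21% by posterior mean TPM), because counts are not divided by length. None of the 12 log2 ratios chosen between members changed sign when either library was used alone. Neurod1 to Neurog1 was not among these pairs, and its TPM ratio was 0.911 in replicate 1 and 1.23 in replicate 2. Depth limits Neurog3 most, with 13.5 expected counts in all. No paired analysis was possible because there was only 1 group.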
